A study of Mus musculus with 9 samples.

Results

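The lysosomal genes described here are 40 mouse genes chosen by symbol from a fixed list, out of 54838 genes in the count files. No rule on their values was used, but the choice was made with earlier results of these data known. They comprise 2 transcription factors of the TFEB family, 6 membrane proteins, 19 luminal proteins (hydrolases and the saposin precursor) and 13 genes of the proton pump, the V-ATPase. All 40 passed the filter on low counts in both comparisons made. RNA was sequenced from B16F10, a melanoma cell line of C57BL/6 mice, and from CD8+ T cells, which an isolation kit separated from spleens of adult C57BL/6 mice. Before RNA was taken, cells spent 5 h in medium that held either no addition or 600 µM hypochlorous acid (HOCl), a product of neutrophil myeloperoxidase. B16F10 gave 3 libraries untreated and 3 treated, and T cells gave 2 untreated and 1 treated. Whether replicates were separate cultures or animals is not stated, so the p-values cover the spread among libraries alone, and that spread may be technical.

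The lysosome is the acidic organelle in which macromolecules brought by endocytosis and autophagy are broken down. Its pH is set by the V-ATPase, whose peripheral V1 part hydrolyses ATP and whose membrane part V0 passes the protons. TFEB and TFE3 are basic helix-loop-helix factors that mTORC1 keeps in the cytosol when nutrients are ample, and that bind E-box elements in promoters of lysosomal genes. MITF, the melanocyte factor, belongs to the same family, and the melanosome of pigment cells is itself a lysosome-related organelle.

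The E-box was looked for in the RefSeq promoters (GRCm38.p6, 250 bases before to 50 after each start) of the 35 members that matched by symbol. The core CACGTG stood in a promoter of 13 of the 35 (37.1%), against 8.09% of all 27025 genes in that table. The longer TCACGTG, on either strand and overlapping the core, stood in 12 (34.3%), against 4.29% of genes. These are matches of letters only, with no measurement of binding. The match nearest the start is shown for the 12 genes, because it lets the shared letters and their position be compared. Each line is 30 bases on the gene's strand, and capitals mark TCACGTG or its reverse complement:
Lamp1 (chr8:13159134-13159163, + strand): acgtgaccacaTCACGTGcggaacggagcc
Mcoln1 (chr8:3500462-3500491, + strand): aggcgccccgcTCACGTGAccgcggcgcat
Ctsa (chr2:164833766-164833795, + strand): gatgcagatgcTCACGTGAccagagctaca
Ctsd (chr7:142387908-142387937, - strand): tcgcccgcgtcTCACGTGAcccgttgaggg
Gaa (chr11:119267811-119267840, + strand): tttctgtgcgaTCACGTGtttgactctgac
Gla (chrX:134601182-134601211, - strand): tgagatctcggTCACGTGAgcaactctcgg
Glb1 (chr9:114401018-114401047, + strand): ctgcttctgagTCACGTGgcctacagaggc
Naglu (chr11:101070009-101070038, + strand): caaccttcaggTCACGTGgcccgaggtcgg
Atp6v0b (chr4:117887330-117887359, - strand): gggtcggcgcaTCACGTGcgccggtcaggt
Atp6v0d1 (chr8:105566050-105566079, - strand): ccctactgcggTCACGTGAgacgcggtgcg
Atp6v0e (chr17:26676387-26676416, + strand): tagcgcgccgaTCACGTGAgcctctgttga
Atp6v1a (chr16:44139373-44139402, - strand): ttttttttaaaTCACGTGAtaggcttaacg

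Lamp1 held 4 copies of the core within the 80 bases before its start (chr8:13159081-13159160, + strand), the most of any member's promoter, and that stretch is therefore shown with the same capitals:
Lamp1 upstream: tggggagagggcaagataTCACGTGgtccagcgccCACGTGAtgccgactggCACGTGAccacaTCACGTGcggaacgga
No promoter was read for Ctsb, Asah1, Atp6v1b2, Atp6v1c1 and Atp6v1h, which include 3 of the 7 genes that rose with HOCl (described next). TCACGTG stood in 2 of the 4 risers with a promoter (Lamp1 and Gla), in 0 of the 2 fallers and in 10 of the 29 members that did not pass the test.

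In B16F10 cells given HOCl, most of these lysosomal genes stayed close to their untreated level. Of the 40, 7 rose, 2 fell and 31 did not pass the test (22.5% called), while 28.3% of all 16082 genes tested were called (edgeR's quasi-likelihood test, Benjamini-Hochberg adjusted over all genes, threshold 0.05). Among the 7631 genes at or above the level of the lowest member (22.1 counts per M counts of the library, CPM, averaged over both groups), 40.8% were called. The risers were Tfe3, Lamp1, Lamp2, Ctsb, Gla, Atp6v1b2 and Atp6v1h, and the fallers were Gusb and Ctsz. The largest change was 1.26-fold, of Atp6v1h, and the median log2 fold change over the 40 was 0.02 against -0.01 over all genes tested. None of the 40 reached 1.5-fold, which 10.6% of all genes tested and 1.97% of the genes at or above the lowest member's level did. The 95% intervals of all 40 lay inside 1.5-fold in either direction, from -0.35 (Ctsz) to 0.44 (Gla) on the log2 scale. The CPM of the 2 groups did not overlap in 21 of the 40, and 12 of these did not pass the test. The share over all genes was not counted. Calls rest on the same values, so where groups are said below not to overlap, this describes them and adds no support.

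The counts of calls depended on single libraries. Without untreated replicate 1, 15 members rose and 7 fell. Without untreated replicate 2 the counts were 4 and 2, without untreated replicate 3 they were 5 and 2, without HOCl replicate 1 they were 3 and 2, and without HOCl replicate 2 or HOCl replicate 3 they were 4 and 1. Over all genes, the fits without 1 library called 1605 to 2819 higher and 1410 to 2634 lower, against 2366 and 2178 with all libraries. The members' calls without untreated replicate 1 grew by a larger factor than any of these. The lower share of calls among members, given above, therefore cannot be relied on. Tfe3, Gusb, Atp6v1b2 and Atp6v1h kept their calls without any 1 library. None of the 9 called members kept its call when all 9 libraries of both cell types shared 1 estimate of the spread.

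**Figure D1:**
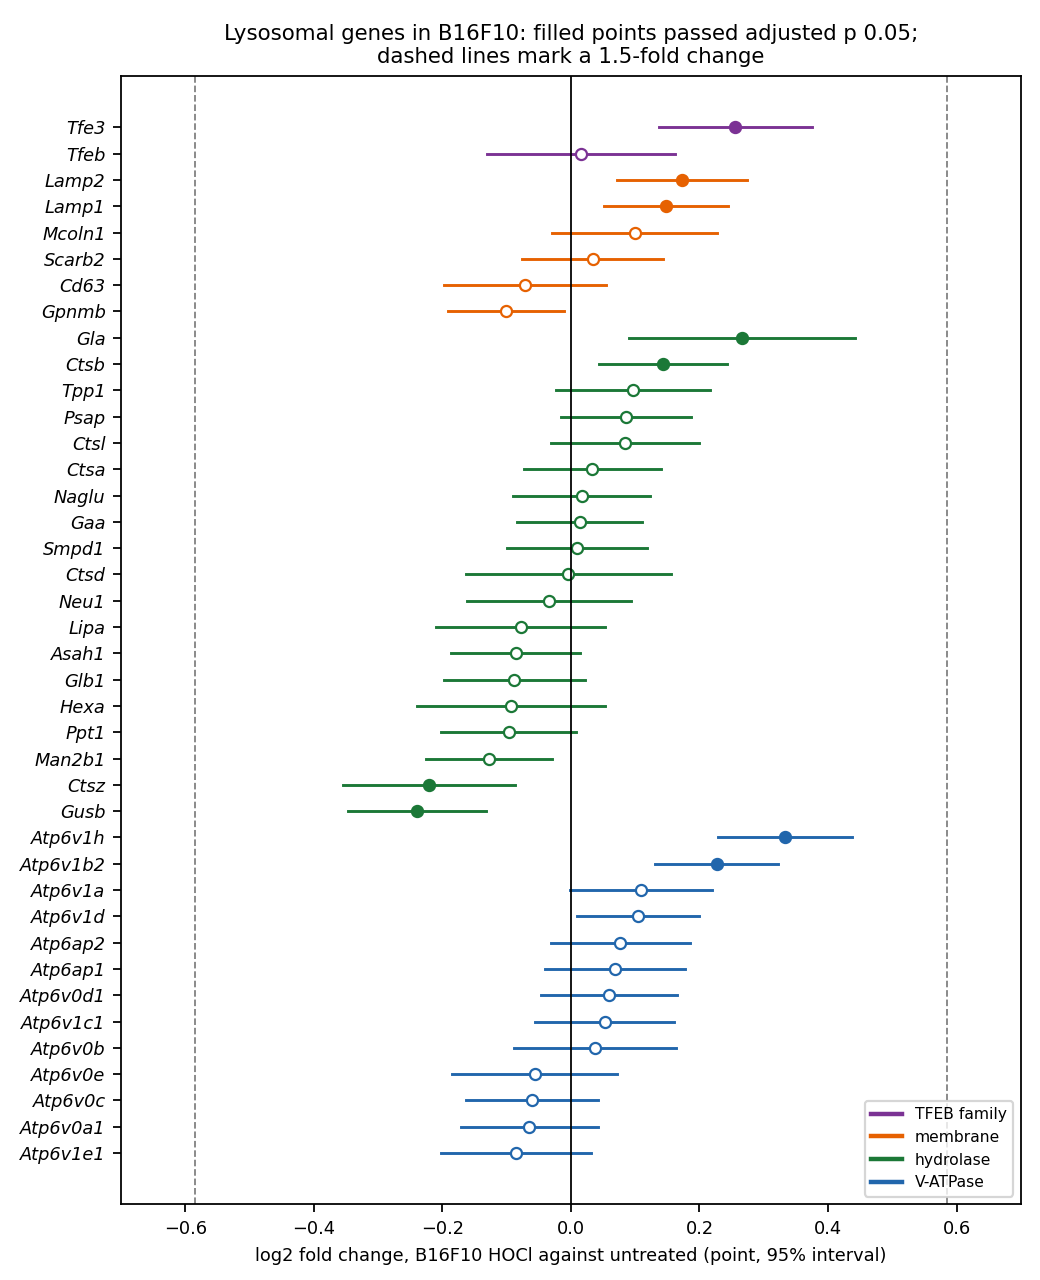
Log2 fold change of each of the 40 members in B16F10, HOCl against untreated (points), with 95% intervals (lines), coloured by class; filled points passed an adjusted p of 0.05. The points run from -0.24 (Gusb) to 0.33 (Atp6v1h), and no interval reaches the dashed lines at 1.5-fold.

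Library totals in B16F10 ran from 45.9 to 61.35 M counts, and untreated replicate 1 was the deepest. Untreated replicate 1 held the highest CPM of its group for 22 of the 40 members, and HOCl replicate 1 for 32. Pigment markers, a check of cell identity (Mlana, Pmel, Tyr, Tyrp1, Dct and Sox10), summed to 23702 to 24728 CPM in the 6 libraries. Of these markers, Mlana and Tyr fell with HOCl by 0.23 and 0.25 on the log2 scale and Sox10 rose by 0.28 (adjusted p 0.0169, 0.0192 and 0.00111 by edgeR), while Pmel, Tyrp1 and Dct did not pass the test. Macrophage markers, of a cell type rich in lysosomes, summed to 2.02 to 2.61 CPM over their 6 genes, with C1qa at 0 in all 6 libraries, which allows up to 0.0489 to 0.0654 CPM. The 7 T cell markers summed to 4.32 to 6.04 CPM in 5 libraries and to 24.4 CPM in HOCl replicate 3. Their part in the results was not tested, but the values without that library are given above.

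Of the TFEB family, Tfe3 rose and Tfeb did not pass the test. Tfe3 (ENSMUSG00000000134, chromosome X, 7762560 to 7775202, GRCm38) stood at 59.99, 60.5 and 61.2 CPM in the untreated libraries and at 78.2, 70.3 and 72.7 CPM with HOCl. The groups did not overlap, and HOCl replicate 1 was the highest. The log2 fold change was 0.26 ± 0.05 (SE) with an adjusted p of 0.00456 by edgeR. Tfeb stood at 27.9, 25.4 and 27.4 CPM untreated and 29.1, 27.4 and 26.7 CPM with HOCl, so the groups overlapped. Its log2 fold change was 0.02, with a 95% interval from -0.13 to 0.16. Mitf, the third factor of the family expressed in these cells, had 351 ± 27.6 CPM untreated and 347 ± 7.63 CPM with HOCl (mean ± SD, n = 3), and a log2 fold change of -0.04 ± 0.06 that did not pass the test.

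Among the membrane proteins, both LAMP genes rose and the other 4 did not pass the test. Lamp1 and Lamp2 encode the most abundant glycoproteins of the lysosomal membrane, and LAMP2 also takes part in the fusion of autophagosomes with lysosomes. Lamp1 stood at 608, 634 and 639.65 CPM untreated and at 720.5, 712 and 692 CPM with HOCl. Lamp2 stood at 345, 373 and 371 CPM untreated and at 414, 414 and 422 CPM with HOCl. In both genes every HOCl library was above every untreated one, and untreated replicate 1 was the lowest. Lamp1 had a log2 fold change of 0.15 ± 0.04 and Lamp2 of 0.17 ± 0.05, with adjusted p of 0.0264 and 0.0154 by edgeR. Both calls ended without any 1 of the HOCl libraries, and that of Lamp1 also without untreated replicate 2 (adjusted p up to 0.122 and 0.0700).

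Gpnmb, a melanosomal and lysosomal glycoprotein gene, was the most abundant member, at 8789.7, 8673 and 8859 CPM untreated and 8464, 8324 and 8225 CPM with HOCl. The HOCl libraries were all lower, yet its log2 fold change of -0.10 ± 0.04 missed the threshold with an adjusted p of 0.0912 by edgeR. It passed only without untreated replicate 1. Cd63, a tetraspanin gene of late endosomes, had -0.07, Scarb2, which carries glucocerebrosidase to the lysosome, 0.03, and Mcoln1, the lysosomal cation channel TRPML1, 0.10.

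Of the 19 luminal proteins, 2 rose, 2 fell and 15 did not pass the test, with a median log2 fold change of -0.00388 for the class. Ctsb encodes the cysteine protease cathepsin B and stood at 2252, 2187 and 2214 CPM untreated and at 2594, 2489 and 2403 CPM with HOCl. The groups did not overlap, and the log2 fold change was 0.14 ± 0.05 (adjusted p 0.0353 by edgeR). Gla encodes alpha-galactosidase A, which removes terminal galactose from glycolipids. It stood at 21.03, 18.7 and 19.7 CPM untreated and at 26.1, 21.9 and 25.009 CPM with HOCl. The lowest HOCl library was just above the highest untreated one, and the log2 fold change was 0.27 ± 0.08 (adjusted p 0.0271 by edgeR). Each of these calls ended without any 1 of 4 libraries, with adjusted p up to 0.176 for Ctsb and 0.127 for Gla. The merged exons of Ctsb share 774 bases, 12.8% of them, with Fdft1 on the other strand (150.0 CPM in untreated B16F10), and without a stated strand setting reads there cannot be told apart.

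Gusb encodes beta-glucuronidase, which degrades glycosaminoglycans, and was the largest fall. Gusb (ENSMUSG00000025534, chromosome 5, 129989011 to 130003049) stood at 315, 293 and 296 CPM untreated and at 267, 262 and 250.98 CPM with HOCl. Every HOCl library was below every untreated one. The log2 fold change was -0.24 ± 0.05 with an adjusted p of 0.00362 by edgeR. Ctsz, the gene of the carboxypeptidase cathepsin Z, stood at 453, 393 and 397 CPM untreated and at 379.8, 357 and 350.0 CPM with HOCl. Untreated replicate 1 stood well above the other untreated libraries. The log2 fold change was -0.22 ± 0.06 (adjusted p 0.0179 by edgeR), and the call ended without HOCl replicate 2 or HOCl replicate 3.

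The 15 luminal genes that did not pass the test had log2 fold changes from -0.13 (Man2b1) to 0.10 (Tpp1). Among the proteases and their partner, Ctsa, Ctsd, Ctsl and the tripeptidyl peptidase gene Tpp1 had 0.03, -0.00388, 0.08 and 0.10. Among the glycosidases, Gaa, which breaks down glycogen, had 0.01, Naglu 0.02, the sialidase gene Neu1 -0.03, the beta-galactosidase gene Glb1 -0.09 and Hexa, a subunit of beta-hexosaminidase, -0.09. Man2b1, an alpha-mannosidase gene, was nearest to a call, at an adjusted p of 0.0530 by edgeR. Among the genes of lipid breakdown, the saposin precursor gene Psap had 0.09, the acid sphingomyelinase gene Smpd1 0.01, the acid ceramidase gene Asah1 -0.09, the acid lipase gene Lipa -0.08 and the palmitoyl thioesterase gene Ppt1 -0.10. Without untreated replicate 1, Ctsd changed sign to 0.11, with an adjusted p of 0.0164 by edgeR.

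Of the 13 V-ATPase genes, 2 rose, 0 fell and 11 did not pass the test, and both risers encode V1 subunits. Atp6v1h encodes subunit H of the V1 part. Atp6v1h (ENSMUSG00000033793, chromosome 1, 5070018 to 5162529) stood at 171, 158 and 162 CPM untreated and at 210.4, 213 and 207 CPM with HOCl. It had the largest log2 fold change of the 40, 0.33 ± 0.05 (adjusted p 0.000369 by edgeR), and the groups lay far apart for their spread. Atp6v1b2 encodes subunit B2, a part of the ring in which ATP is bound. Atp6v1b2 (ENSMUSG00000006273, chromosome 8, 69088646 to 69113711) stood at 385, 382 and 398 CPM untreated and at 467, 467 and 456 CPM with HOCl. Again no HOCl library reached down to the untreated range, and the log2 fold change was 0.23 ± 0.04 (adjusted p 0.00245 by edgeR).

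The other V1 genes ranged from -0.09 for Atp6v1e1 to 0.11 for Atp6v1a, the catalytic subunit, and 5 of the 6 V1 genes had a positive sign. The 5 V0 genes ran from -0.07 for Atp6v0a1 to 0.06 for Atp6v0d1, with 2 positive and 3 negative signs. Atp6v0c, the gene of the proton-carrying ring protein, had -0.06 and its pseudogenes Atp6v0c-ps2 and Atp6v0c-ps1 held 7.93 and 0.590 CPM in untreated B16F10 against 261 CPM of the gene. The accessory subunit genes Atp6ap1 and Atp6ap2 had 0.07 and 0.08. The difference between V1 and V0 genes was not tested. Outside the 40, the V1 genes Atp6v1f and Atp6v1g1 averaged 211 and 320 CPM untreated and 203 and 313 CPM with HOCl. The V1 gene Atp6v1g2 went from 1.56 to 2.05 CPM. Of V0 genes, Atp6v0a2, Tcirg1 and Atp6v0e2 averaged 161, 315 and 194 CPM untreated and 178, 317 and 198 CPM with HOCl. Atp6v0a4 went from 1.87 to 1.73 CPM. Summed over the 13 genes, the V-ATPase stood at 3268, 3197 and 3207 CPM untreated and at 3482, 3459 and 3346 CPM with HOCl. As a description, all HOCl sums were above the untreated ones. These CPM are not scaled by TMM. The sum holds the 2 called genes, Atp6v1b2 (388 and 463 CPM on average) and Atp6v1h (164 and 210 CPM). The sum of the 6 membrane genes, most of it Gpnmb, went the other way, from 11148, 10974 and 11159 CPM untreated to 10953, 10765 and 10579 CPM with HOCl.

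**Figure D2:**
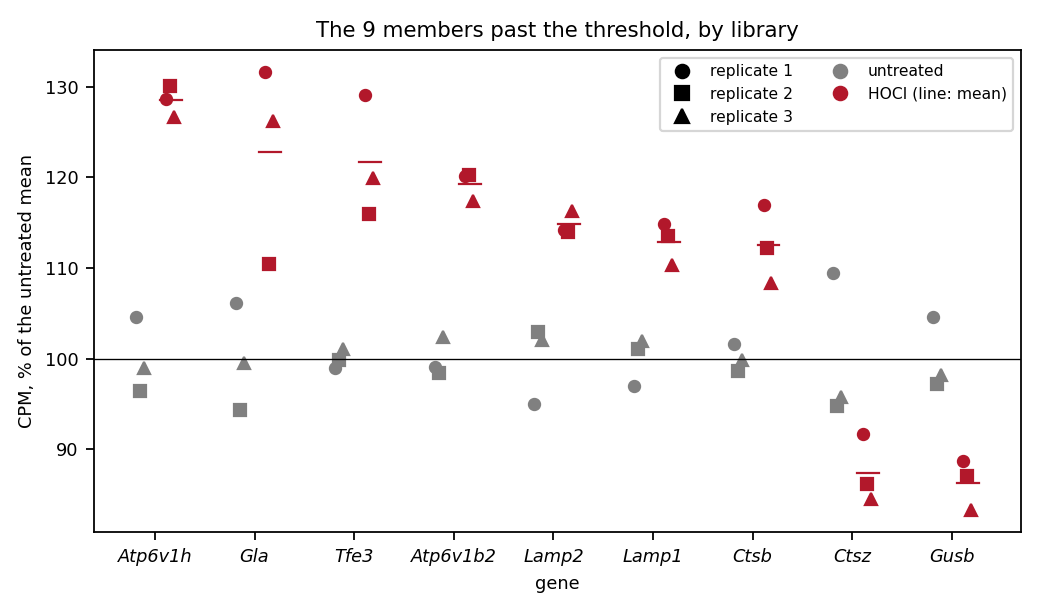
The 9 members past the threshold in B16F10, each library's CPM as a percentage of the untreated mean; marker shape gives the replicate number, grey untreated and red HOCl, with the HOCl mean as a line. Atp6v1h lies at 127 to 130.1% in the HOCl libraries and Gusb at 83.3 to 88.7%. Within each gene the 2 groups do not overlap, which also holds for 12 of the 31 members without a call.

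Missing the threshold does not show that the 31 other members did not change, but their 95% intervals were narrow. All 31 intervals lay within 1.25-fold in either direction, from -0.24 (Hexa) to 0.23 (Mcoln1) on the log2 scale. In the authors' deposited table for B16F10, 9 of the 40 had an adjusted p under 0.05, and all 9 were the genes called here, with the same sign as deposited.

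Other lysosomal genes, from lists chosen beside the 40, also showed mostly small changes in B16F10. Among 31 further luminal proteins and cofactors tested, 6 rose and 0 fell (median log2 fold change -0.00158), beside 14.7% and 13.5% of all genes. The rises were 3 without untreated replicate 2 and 1 without HOCl replicate 1 or HOCl replicate 2. The largest rises were of the cathepsin F gene Ctsf (0.53 ± 0.15, from 4.69 to 6.93 CPM on average) and the phospholipase gene Pla2g15 (0.29 ± 0.06). Of 21 further membrane proteins and transporters, 3 rose and 3 fell (median 0.04). Ctns, the cystine exporter of the lysosome, had 0.29 ± 0.06, the sialic acid exporter gene Slc17a5 0.26 ± 0.09 and Lmbrd1, needed for release of vitamin B12, 0.25 ± 0.04. The ion channel genes Tpcn2 and Tpcn1 fell by 0.25 and 0.22 on the log2 scale. Slc11a2, an iron transporter gene, had -0.14 and an adjusted p of 0.0473 by edgeR, a call that ended with DESeq2's size factors, library totals, no filter and DESeq2's test, and in 5 of the 6 fits without 1 library. Of these, Pla2g15, Ctns and Lmbrd1 kept their calls without any 1 library. Of 9 genes of mannose 6-phosphate sorting and 8 further V-ATPase genes tested, 0 passed the threshold by edgeR, 0 had an unadjusted p under 0.05, and 0 were called by DESeq2.

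The list of factors and mTORC1 regulators at the lysosome had 7 rises and 1 fall among 23 genes tested (median 0.05), 8 calls in all, beside the 28.3% called over all genes and the 40.8% at the members' level. Flcn encodes folliculin, which acts on the Rag GTPases that bring mTORC1 to the lysosome. It stood at 124, 127 and 132 CPM untreated and at 163, 164 and 158 CPM with HOCl, with a log2 fold change of 0.32 ± 0.05 (adjusted p 0.000450 by edgeR). Rragd, a Rag GTPase gene, stood at 33.8, 33.7 and 34.8 CPM untreated and at 45.3, 41.9 and 47.4 CPM with HOCl (0.37 ± 0.06, adjusted p 0.000921 by edgeR). Tsc1, a subunit of the complex that holds mTORC1 back, stood at 63.6, 76.3 and 71.4 CPM untreated and at 90.2, 87.5 and 92.8 CPM with HOCl (0.33 ± 0.06, adjusted p 0.00264 by edgeR). In all 3 genes the groups did not overlap, and the calls held without any 1 library. Lamtor4, a subunit of the scaffold for the Rag GTPases, fell by 0.24 on the log2 scale, a call that ended without untreated replicate 1, without any 1 HOCl library and with library totals in place of TMM.

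Transcripts of these 40 genes made up a larger share of the untreated B16F10 libraries than of the untreated T cell libraries. Of the 40 genes, 33 were higher in B16F10, 2 were higher in T cells and 5 did not pass the test (edgeR's quasi-likelihood test over 18352 genes, of which 71.1% were called, 35.8% as higher in B16F10 and 35.4% as higher in T cells). The median log2 difference of the 40 was 1.66 towards B16F10, against -0.02 over all genes tested. Summed over the 40, the libraries held 22517, 21741 and 22079 CPM in B16F10 and 3419 and 2562 CPM in T cells. Gpnmb alone averaged 8774 CPM of the B16F10 sum and 16.3 CPM of that in T cells. CPM is a share of a library and not an amount per cell. In such bulk RNA, fewer cells of a type and less RNA per cell cannot be told apart, and neither can cell type and preparation.

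**Figure D3:**
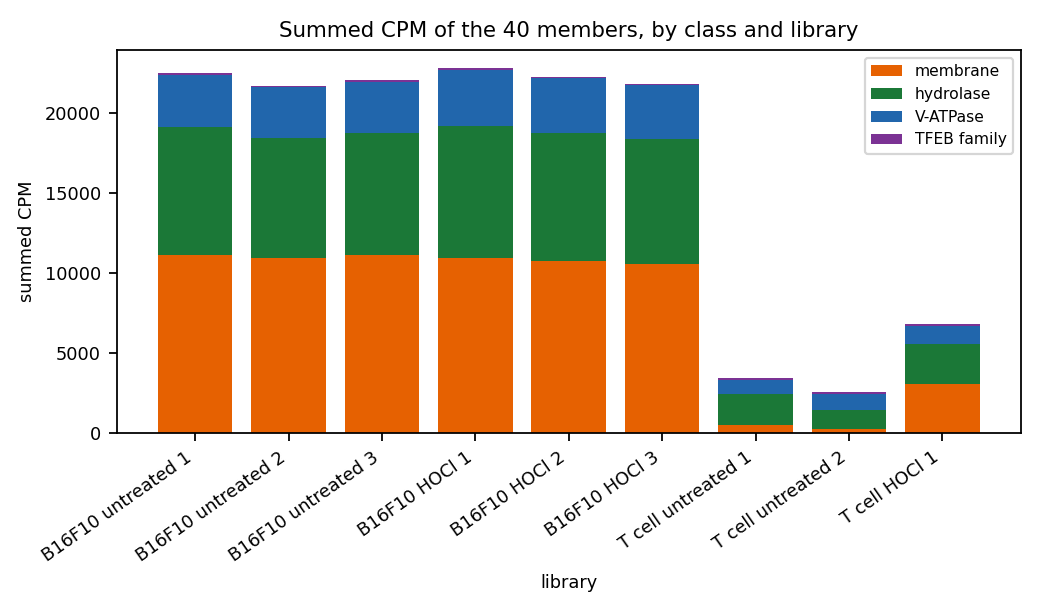
Summed CPM of the 40 members in each of the 9 libraries, stacked by class. The 6 B16F10 libraries stand between 21741 and 22826 CPM, the untreated T cell libraries at 3419 and 2562 CPM and the T cell HOCl library at 6793 CPM; the TFEB family, at 71.5 to 107 CPM, is barely visible.

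The largest differences were of Gpnmb and Cd63, whose proteins are also constituents of melanosomes. Gpnmb had the 3 B16F10 values given above against 25.9 and 6.55 CPM in T cells, a log2 difference of 8.87 ± 0.79 (adjusted p 0.000209 by edgeR). Cd63 stood at 1258, 1135 and 1130.0 CPM against 5.87 and 6.99 CPM, a difference of 7.26 ± 0.27 (adjusted p 1.12e-05 by edgeR). The pigment markers summed to 97.8 CPM in T cell replicate 1 and to 22.8 CPM in T cell replicate 2, and Gpnmb was higher in the same library. The part of such transcripts in the T cell level of Gpnmb was not tested.

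Atp6v0a1, a V0 subunit a gene, stood at 299, 334 and 318 CPM in B16F10 and at 5.79 and 4.05 CPM in T cells, a log2 difference of 5.77 ± 0.22 (adjusted p 1.25e-05 by edgeR). Subunit a has several genes. Per kb of merged exons, B16F10 held 68.4 CPM of Tcirg1, 48.4 of Atp6v0a1, 23.9 of Atp6v0a2 and 0.377 of Atp6v0a4 on average, and T cells 17.9, 0.750, 13.8 and 0.00201. T cells thus had Tcirg1 and Atp6v0a2 as their leading subunit a transcripts, and Atp6v0a1 was the lowest of the 40 members there. Ctsb, at 121 and 78.7 CPM in T cells, was the fourth largest difference (4.24 ± 0.26, adjusted p 4.68e-05 by edgeR).

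Neu1 was higher in T cells, at 139.9 and 117 CPM against 91.3, 82.5 and 81.2 CPM in B16F10 (log2 difference -0.84 ± 0.14, adjusted p 0.00238 by edgeR). With the replicate number as a block the adjusted p was 0.0670. The only other member called that way was Atp6v1d, at 181 and 216 CPM against 171, 169 and 172 CPM (-0.47 ± 0.16, adjusted p 0.0413 by edgeR), and its call ended without any 1 of the B16F10 libraries, with library totals in place of TMM, with no filter, with the replicate block and by DESeq2. Tfeb, Tfe3, Mcoln1, Scarb2 and Man2b1 did not pass the test. Tfe3 stood at 49.5 and 60.1 CPM in T cells, which reached the B16F10 range, and Tfeb at 27.1 and 35.6 CPM. Per kb, Mitf led the family in B16F10 with 56.7 CPM against 6.54 of Tfe3 and 4.75 of Tfeb, whereas T cells held 0.489 of Mitf, 5.92 of Tfe3 and 5.53 of Tfeb.

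Lists of other lysosomal genes held calls in both directions. Of all genes tested, 35.8% were called as higher in B16F10 and 35.4% as higher in T cells. Of 32 further luminal genes tested, 22 were higher in B16F10 and 5 in T cells (median log2 difference 1.15), with the widest differences for Scpep1 (4.96), the progranulin gene Grn (4.52) and the legumain gene Lgmn (3.47). Ctss, the cathepsin S gene of antigen-presenting cells, lay the other way at 112 CPM on average in T cells and 0.0914 CPM in B16F10, followed by Ctso (-1.89) and Npc2 (-1.32). In the untreated T cell libraries the 4 B cell markers summed to 18.7 and 26.2 CPM and the 6 macrophage markers to 9.01 and 8.64 CPM, against at most 0.375 and 2.61 CPM in untreated B16F10. The T cell markers summed to 2667 and 2608 CPM, and the part of other cells in the level of Ctss was not tested. Of 21 membrane genes, 7 were higher in B16F10, led by Laptm4b (5.88), Mcoln3 (2.76) and Laptm4a (1.90), and 2 in T cells, namely the blood cell gene Laptm5 and Cln3 (-10.42 and -2.57). Of 9 sorting genes, 5 were higher in B16F10 and 2 in T cells, of 10 further V-ATPase genes 5 and 2, and of 23 factors and regulators 9 and 4. Sort1, the sortilin gene, had 6.93, Atp6v0e2 9.22 and Mitf 6.61, while Slc38a9, an amino acid sensor gene of the lysosome, had -1.75.

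The 2 untreated T cell libraries differed from each other in several members. Mcoln1 stood at 122 CPM in replicate 1 and 29.6 CPM in replicate 2, and Man2b1 at 215 and 76.6 CPM. Without T cell replicate 1 both genes passed the test as higher in B16F10, with log2 differences of 0.53 and 0.53, opposite in sign to the values with all libraries (-0.74 ± 0.50 and -0.32 ± 0.37). Without it, 35 members were higher in B16F10 and 4 in T cells, and without T cell replicate 2 these counts were 33 and 5. Leaving out any 1 B16F10 library gave 27 and 1.

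Levels between members differed widely within B16F10. Per kb of merged exons, Gpnmb came first at 1347 ± 14.4 CPM (SD, n = 3 untreated libraries), followed by the aspartic protease gene Ctsd at 417 ± 51.2, Psap at 405 ± 14.3 and Ctsb at 367 ± 5.46. Ctsd and Psap did not differ beyond their spread. Cd63 at 319 ± 19.7, Ctsz at 287 ± 23.4, Lamp1 at 234.5 ± 6.23 and Hexa at 213 ± 21.8 came next, and the last pair were close for their spread too. The lowest were Mcoln1 at 6.92 ± 0.468, Tfe3 at 6.54 ± 0.0684, Gla at 6.07 ± 0.360 and Tfeb at 4.75 ± 0.236. Merged exons pool all annotated transcripts of a gene, so these ranks depend on the annotation. By CPM, Mcoln1 and Tfe3 averaged 52.3 and 60.6, above Gla at 19.8 and Tfeb at 26.9. In T cells Psap led, with 246 and 172 CPM per kb, ahead of Ctsd with 83.4 and 52.3 and Atp6v0d1 with 43.4 and 54.7.

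**Figure D4:**
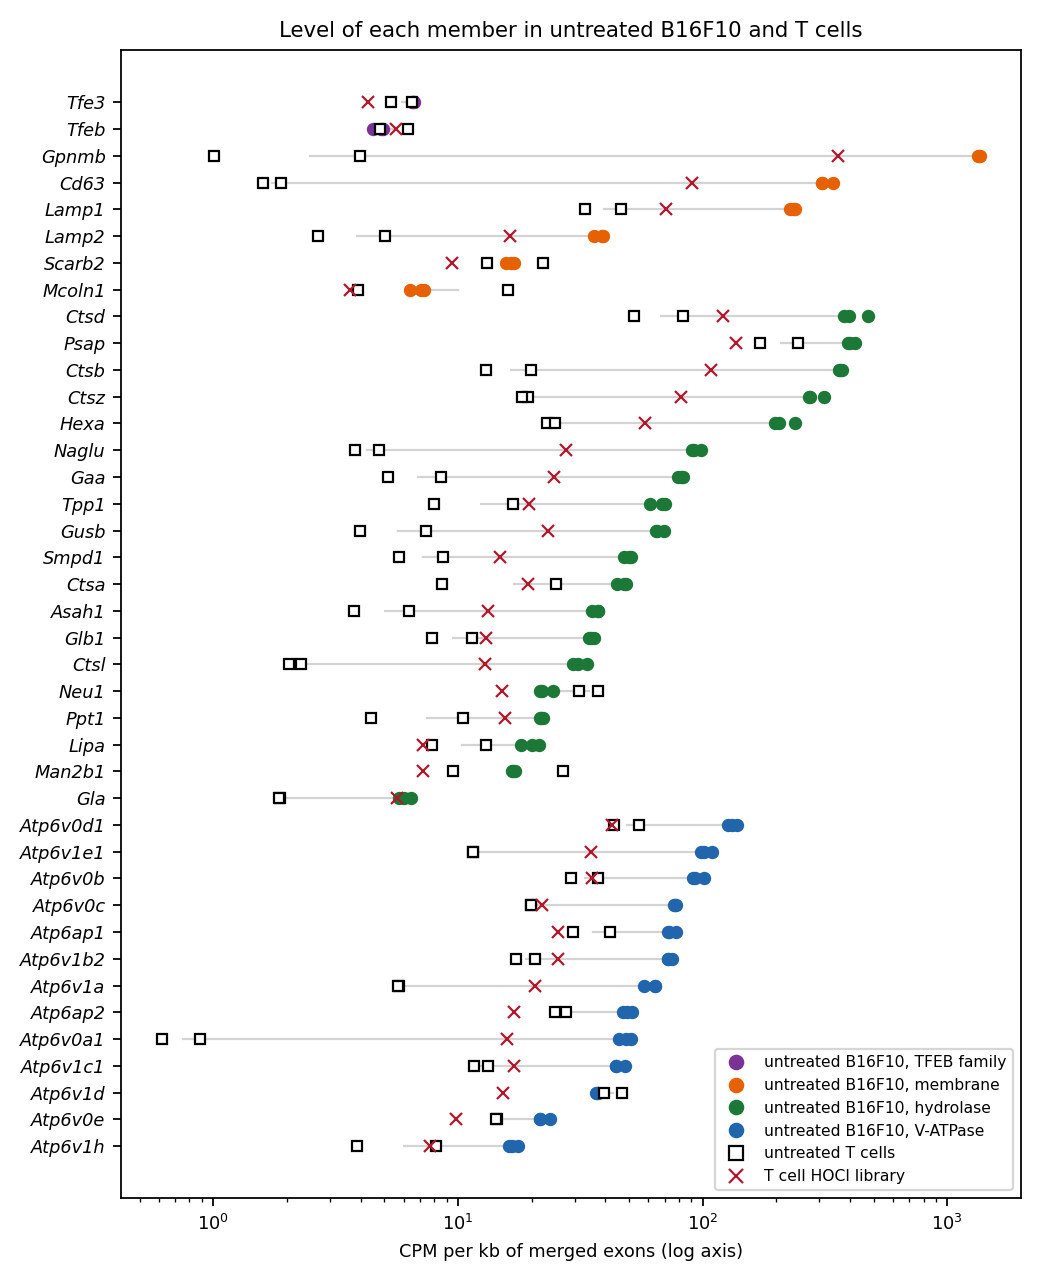
CPM per kb of merged exons (log axis) of each member in the 3 untreated B16F10 libraries (filled circles), the 2 untreated T cell libraries (open squares) and the T cell HOCl library (crosses), with grey lines between the untreated means. Gpnmb lies at 1347 CPM per kb in B16F10 on average and at 3.98 and 1.01 in untreated T cells, and Tfeb and Tfe3 lie at similar levels in both cell types.

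The library labelled T cell HOCl stood apart from the other 8, and its HOCl effect was described but not tested. It held 12.85 M counts, against 45.9 M or more in the others. At least 1 count was seen for 44225 genes there and for 22855 to 25907 in the others, and 37.4% of its counts were mitochondrial (95% Wilson interval 37.4 to 37.46, counting error only). Of the 40 members, 24 were above both untreated T cell libraries there, 12 were below both and 4 lay between. Of all 18352 genes tested between the cell types, 51.9% were above both and 35.4% below both. Among the 9530 of them at or above the lowest member's level in untreated T cells (4.92 CPM), these shares were 24.1% and 59.1%. The shares thus moved with the level chosen, and the members' own count was not tested against either. Lamp2 stood at 156 CPM against 48.2 and 25.6 CPM, Ctsb at 657 against 121 and 78.7 CPM, and Atp6v1a at 125 against 34.7 and 34.5 CPM. Neu1 stood at 56.7 against 139.9 and 117 CPM, Atp6v1d at 70.7 against 181 and 216 CPM, and Tfe3 at 39.9 against 49.5 and 60.1 CPM. The 3 members under 2% of their B16F10 level in both untreated T cell libraries (Cd63, Gpnmb and Atp6v0a1) stood at 27.9 to 33.57% of their B16F10 HOCl mean, and the 6 pigment markers at 24.98 to 32.9%. The 7 T cell markers summed to 501 CPM there against 2667 and 2608 CPM. Treatment, melanoma transcripts and the makeup of this library cannot be told apart.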

How the data were processed

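For each of the 9 libraries the authors deposited a raw count of reads per gene. The submitters' processing notes name FastQC 0.11.8, STAR 2.7.1a, featureCounts 1.6.0, DESeq2 1.22.2 and mm10. Neither annotation release, strand setting nor multi-mapping rule is stated (not given in the sources used here). From the authors' deposited table for B16F10, log2 fold changes and adjusted p-values were compared with the calls made here. Its header numbers the groups without naming them, so signs were read as deposited. The T cell table was not used here.

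Members, lists and tests were chosen with earlier results of these data known. Genes were kept by filterByExpr, scaled by TMM and tested with edgeR 4.0.16 (R 4.3.3, robust quasi-likelihood F test) with Benjamini-Hochberg adjustment over all genes tested and a threshold of 0.05. Each comparison used only its own groups: the 6 B16F10 libraries, or the 5 untreated ones. SE is the log2 fold change over the square root of F, and 95% intervals use its t distribution with the fit's degrees of freedom. CPM divides by each library's summed gene counts. Lengths and coordinates are GENCODE M21 on GRCm38, 1-based. Of the gene IDs in the deposited files, 54809 were found there and 29 were not. Floors at a count of 0 are 3 counts and, like Wilson intervals, cover counting error only. No pair of replicates agreed within counting noise (chi-square per degree of freedom 3.73 to 393). The test was tested on simulated counts. Alternatives were other scalings and filters, DESeq2 1.42.0, a joint fit of the 9 libraries, a block on replicate number, and leaving out each library.

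All 40 members are named. Values in every library were given for Tfeb, Tfe3 and up to 4 members per class and direction past the threshold with the largest change, for the 4 largest differences between cell types per direction, and up to 3 genes per direction were named from the other lists. A gene that this rule names is not reported here. Members without a call that are shown by library (Gpnmb, Mcoln1, Man2b1) were chosen after their values were seen.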

Additional observations from a re-analysis of the deposited data

Results flagged for a closer look

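In the library labelled T cell HOCl, 3 members that were called in B16F10 lay outside the untreated T cell range in the direction opposite to their change in B16F10, while 5 of the 9 called members (Lamp1, Lamp2, Ctsb, Gla and Atp6v1b2) lay above both untreated libraries, on the side of their rise in B16F10, and Atp6v1h lay between. Of all genes tested between the cell types, 51.9% were above both untreated libraries and 35.4% below both. Among those at or above the lowest member's level in untreated T cells, the shares were 24.1% and 59.1%. The difference between the cell types was not tested, and 1 library gives no spread. Tfe3, higher with HOCl in B16F10, was at 39.9 CPM, below both untreated T cell libraries. Gusb and Ctsz, lower with HOCl in B16F10, were at 106 and 118 CPM, above both. Beside this, the same library held 6603 CPM of pigment markers (a share of 0.660%, with a 95% Wilson interval from 0.656 to 0.665). Untreated T cells held 97.8 and 22.8 CPM of them. The library also had 374294 CPM of mitochondrial transcripts against 15529 and 21077 CPM.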

How the results depend on the processing

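In B16F10, DESeq2's size factors, library totals, no filter, a filter of 1 CPM, DESeq2's test and the replicate block left 7 or 8 members higher and 2 or 3 lower. With all 9 libraries in 1 fit, 11 of all genes rose and 26 fell, and 0 members and 0 genes of the other lists were called; the cause was not tested. Leaving out each library gave 3 to 15 members higher and 1 to 7 lower, 1605 to 2819 of all genes higher and 1410 to 2634 lower, and for the other lists 1 to 6 luminal genes higher and 0 to 2 lower, 2 to 3 membrane genes higher and 0 to 3 lower, 0 to 2 sorting genes lower, and 5 to 9 regulators higher and 0 to 2 lower. The single regulator that fell became 0 with library totals, 2 with no filter or the filter of 1 CPM, and 3 by DESeq2 and with the replicate block. Ctsd ran from -0.06585 without untreated replicate 2 to 0.1062 without untreated replicate 1.

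The titles number the replicates alike but do not say that the numbers mark a pairing. Same-numbered B16F10 libraries did not deviate together (r = 0.0352, -0.00347 and 0.00148). With so few libraries such correlations cannot exclude a shared culture or day. With the replicate block 2726 of all genes rose and 2567 fell, and 7 and 2 members did.

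Between the cell types, members higher in T cells numbered 1 with library totals, no filter or DESeq2's test and 0 with the replicate block, and 1 to 5 without 1 library (27 to 35 higher in B16F10). Mcoln1 and Man2b1 turned to 0.5304 and 0.5319 without T cell replicate 1, and were at -1.355 and -0.8018 without T cell replicate 2. Library totals, which moved the median of all genes to 0.22, gave 3 luminal, 1 sorting and 2 regulator genes higher in T cells and 11 membrane genes higher in B16F10; the last was also 11 with all 9 libraries. No filter gave 2 regulators, and the filter of 1 CPM 0 V-ATPase genes, higher in T cells. The replicate block gave 3 luminal, 1 sorting, 1 V-ATPase and 2 regulator genes higher in T cells and 2 sorting genes higher in B16F10. Leaving out 1 library gave 3 to 8 luminal, 2 to 5 membrane, 1 to 3 sorting and 2 to 9 regulator genes higher in T cells, and 6 to 13 membrane and 3 to 6 V-ATPase genes higher in B16F10. Depth limits the T cell HOCl library, where 3 counts are 0.234 CPM.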
